A study of Mus musculus with 12 samples.

Results

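Spheres grown from wounded mouse skin that had received trimebutine maleate were compared with spheres from wounded skin that had received vehicle, over all genes that an expression array could place. Each group had 3 arrays, chosen by the sample labels, so the comparison uses 6 of the 12 arrays of the series, and 13153 of 22180 genes were bright enough to be tested. The cells were SKPs (skin-derived precursors, which float as spheres in culture) from mice aged 9 months of the strain written CD57/Bl6 in the labels. Both groups came from wounded skin and were regrown as secondary spheres in the same medium, which held 40 ng/ml of FGF2, 20 ng/ml of EGF and 2% of the supplement B27, and they differed in the agent alone (trimebutine maleate or vehicle). The other 6 arrays, of wound alprostadil and of uninjured vehicle, entered the same model and the filter on dim genes, and alprostadil is compared with trimebutine at the end. The series was deposited as part of a search for drugs that help skin to heal. Nothing in these sources states the dose, route, time of treatment or skin site, nor whether an isolate pools several animals. The labels call the replicates biological and the design text calls them independent isolates.

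Trimebutine is a drug for disorders of gut motility. It acts on opioid receptors of the gut and blocks calcium, sodium and potassium channels of smooth muscle and nerve. Dermal fibroblasts and their precursors make the collagens, elastic fibres and proteoglycans of the dermis, and in a healing wound they divide, lay down matrix and take on contractile proteins such as smooth muscle actin. Secreted proteins of this kind fold in the endoplasmic reticulum (ER), where misfolding switches on the unfolded protein response, a set of chaperones and stress factors.

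Values are log2 expression levels, so a difference of 1 is a doubling, and differences are trimebutine minus vehicle with the standard error (SE) of the model. Genes of fibroblasts and mesenchyme were bright on all 6 arrays. Fn1 (fibronectin) lay between 13.82 and 13.92, Snai2, a transcription factor of neural crest and mesenchyme, between 11.89 and 12.23, and Twist1, another such factor, between 8.9 and 9.27. Snai2 and Twist1 were also listed as SKP markers. The other SKP markers were near or below the array medians, which lay between 6.62 and 6.74 on these arrays. Nes (nestin) read 6.79 to 7.12, Ngfr (the p75 neurotrophin receptor) 6.73 to 7.11, and Sox2, a factor of neural and dermal papilla precursors, 4.9 to 5.01. The listed SKP markers were thus mixed. Snai2 and Twist1 were bright, while Nes, Ngfr and Sox2 gave little or no signal above the median probe set.

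Vehicle replicate 3 lay apart from the other vehicle arrays and close to the trimebutine arrays. The median absolute difference over the 13153 genes tested was 0.116 between vehicle replicates 1 and 2, but 0.196 and 0.213 between each of these and vehicle replicate 3. Against trimebutine replicates 1, 2 and 3, vehicle replicate 3 differed by 0.169, 0.113 and 0.12. Trimebutine replicates 2 and 3 were the nearest pair, at 0.0955, and trimebutine replicate 1 lay 0.164 and 0.182 from them. Of 677 genes whose trimebutine mean and mean of vehicle replicates 1 and 2 were at least 1 log2 unit apart, 635 (93.8%) had vehicle replicate 3 nearer to trimebutine, as did 9192 of all genes tested (69.9%). Results are therefore given with and without this array, and whether its label is right was not tested. Without it the vehicle group holds 2 arrays, and its spread is taken from the model.

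**Figure D1:**
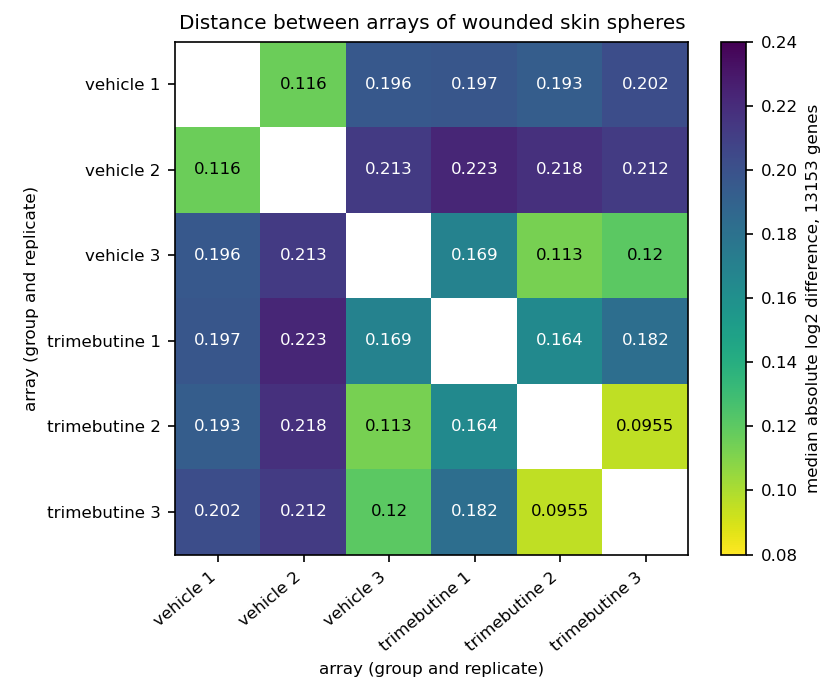
Median absolute log2 difference over 13153 genes for each pair of the 6 arrays, with both axes listing group and replicate. Vehicle replicate 3 is 0.113 and 0.12 from trimebutine replicates 2 and 3, and 0.196 and 0.213 from vehicle replicates 1 and 2.

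No gene passed the threshold between trimebutine and vehicle when all arrays counted equally. In limma's moderated test, 0 of 13153 genes had an adjusted p under 0.05 (0% called, smallest adjusted p = 0.528), and 1240 (9.43%) had an unadjusted p under 0.05, of which 839 were higher and 401 lower with trimebutine. Median centring of the arrays changed that split to 1106 higher and 168 lower, a share of 86.8% in place of 67.7%. Array weights, which let some arrays count for more than others, gave 4034 genes with an adjusted p under 0.05 in limma (2167 higher, 1867 lower). In limma fits that left out 1 array, the 839 higher genes became 331 without vehicle replicate 1, 273 without vehicle replicate 2, 438 without trimebutine replicate 2 and 526 without trimebutine replicate 3, and the 401 lower genes became 168, 182, 256 and 257. When vehicle replicate 3 was left out, 1574 genes were higher and 1232 lower at an unadjusted p under 0.05, and 11 genes (0.0836%) passed after adjustment. The 3 trimebutine arrays lay wholly above the 3 vehicle arrays for 1212 genes (9.21%) and wholly below them for 872 (6.63%). In whole cultures such as these, fewer cells of a kind and less RNA per cell cannot be told apart.

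Among the higher genes the 8 of smallest p included Qprt, Esr1 and Prg4. None of them passed (adjusted p = 0.528 for each of the 8), and all 8 were chosen for a lack of overlap, so that vehicle replicate 3 lies on the vehicle side by choice. Qprt, the enzyme that makes nicotinate mononucleotide from quinolinate in NAD synthesis, read 9.51, 9.14 and 9.46 with trimebutine and 8.5, 8.4 and 8.76 with vehicle, a difference of 0.82 ± 0.15 (SE, n = 3 per group). Esr1, the estrogen receptor alpha, read 9.07, 8.42 and 8.32 against 7.46, 7.42 and 7.75 (1.06 ± 0.23). In both genes vehicle replicate 3 was the highest vehicle array but stayed below every trimebutine array. Prg4 (lubricin, a lubricating proteoglycan of joints and tendon sheaths) read 10.96, 11.5 and 11.29 against 10.09, 10.28 and 10.61 (0.93 ± 0.21). Capn6, a calpain without protease activity, read 12.1, 11.96 and 12.12 against 11.16, 11.46 and 11.54 (0.67 ± 0.15). Pcdhb15, a clustered protocadherin of cell-cell contacts, read 8.51, 8.56 and 8.46 against 7.59, 8.07 and 7.83 (0.68 ± 0.13). For Pcdhb15 vehicle replicate 3 was the middle vehicle array, and the difference was again 0.68 without it, although probes for this family can pick up near-identical neighbours. Itgbl1, a secreted protein with integrin-like repeats, read 10.8, 10.47 and 10.08 against 9.2, 9.28 and 9.82 (1.02 ± 0.21). Clip4, of a family of microtubule-binding proteins, differed by 1.15 ± 0.24, with vehicle at 7.04, 6.46 and 7.47 and trimebutine at 8.15, 8.01 and 8.26. Smim27, a small membrane protein, differed by 0.43 ± 0.09.

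On the lower side the 8 genes of smallest p (adjusted p = 0.528 for each) included an immune receptor, a microRNA host locus and chromatin and membrane proteins. These 8 too were chosen for a lack of overlap, so that vehicle replicate 3 lies on the vehicle side by choice. Cd40, a receptor of the tumour necrosis factor family, read 8.02, 8 and 7.58 with trimebutine and 9.2, 8.86 and 8.34 with vehicle (-0.93 ± 0.23). Bcl7a, a subunit of the SWI/SNF chromatin remodelling complex, read 8.02, 8.15 and 8.22 against 8.5, 8.83 and 8.48 (-0.48 ± 0.11). Car9, a carbonic anhydrase induced by low oxygen, read 6.51, 6.49 and 6.72 against 7.11, 7.31 and 6.84 (-0.51 ± 0.12), which is close to the array medians. For Bcl7a vehicle replicate 3 was the lowest vehicle array by only a small margin, while for Cd40 and Car9 it lay between the other vehicle arrays and trimebutine. Krtap9-1, a keratin-associated protein gene, was at 7.92, 7.85 and 7.9 against 8.13, 8.22 and 8.25 (-0.31 ± 0.07), the smallest of these differences. Slc35d3 (-0.79 ± 0.19), of the nucleotide sugar transporter family, Otud7a (-0.75 ± 0.19), a deubiquitinase, and Get3 (-0.38 ± 0.1), which targets tail-anchored proteins to the ER, completed the set. Without vehicle replicate 3 the difference of Otud7a was -0.98 ± 0.14 (adjusted p = 0.0573), just short of the threshold.

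The probe set of Mir27a, also among those 8 lower genes chosen for a lack of overlap, read 7.35, 7.48 and 7.43 with trimebutine. With vehicle it read 8.09, 8 and 7.83, a difference of -0.56 ± 0.13. The array measures RNA from this locus and does not separate the primary transcript, the hairpin and the mature forms. The locus gives 2 mature microRNAs, at chr8:84208685-84208706 for the 5p arm and chr8:84208727-84208747 for the 3p arm, printed here from RefSeq (GRCm38.p6, plus strand) because this is the small regulatory RNA among the named genes. They run from 5′ to 3′, and capitals mark the seed, bases 2 to 8, which pairs with target messages.
mmu-miR-27a-5p: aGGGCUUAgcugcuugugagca
mmu-miR-27a-3p: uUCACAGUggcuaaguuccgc

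**Figure D2:**
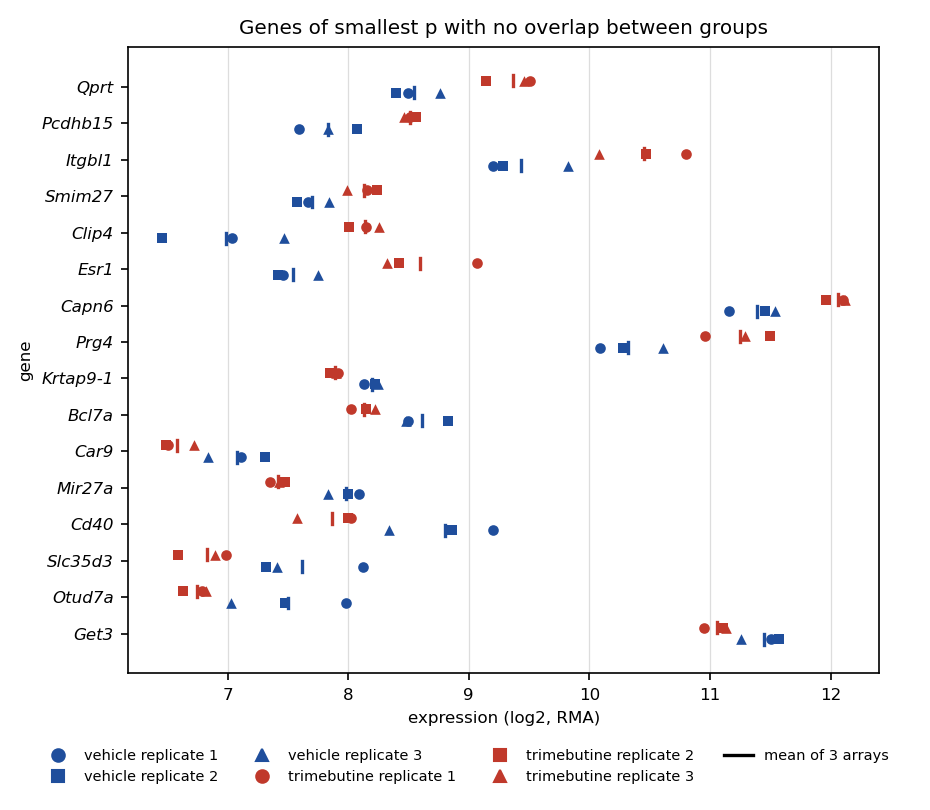
Expression (log2, RMA; horizontal axis) of the 16 genes of smallest p, 8 in each direction, among those with no overlap between trimebutine (red) and vehicle (blue); each symbol is 1 array and vertical bars are means of 3 arrays. For Qprt vehicle replicate 3 is at 8.76, below the lowest trimebutine array at 9.14.

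Without vehicle replicate 3, 9 genes rose and 2 fell with trimebutine, and on all 11 the omitted array read nearer to the trimebutine mean than to the mean of vehicle replicates 1 and 2. This omission was made because the array stands apart, so these calls hold only for vehicle replicates 1 and 2, and with all arrays each of the 11 had an adjusted p of 0.528. Mmp1a, an interstitial collagenase with a close copy in Mmp1b that its probes may share, fell by 1.59 ± 0.14 on the log2 scale (adjusted p = 0.0137 in limma). Its arrays were at 8.73, 8.79 and 8.69 with trimebutine, at 10.42 and 10.22 on vehicle replicates 1 and 2, and at 8.8 on vehicle replicate 3. Htra1, a secreted serine protease that cuts matrix proteins, read 9.69, 9.25 and 9.83 against 11.14, 11.14 and 9.93, and fell by 1.55 ± 0.2 without replicate 3 (adjusted p = 0.0392). For both proteases vehicle replicate 3 lay beside the trimebutine arrays.

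Among the rises without that array, several encode proteins of the cell surface and its surroundings. Epha7, a receptor for ephrins, read 10.31, 10.22 and 10.08 with trimebutine and 8.06, 8.38 and 9.96 with vehicle, and rose by 1.98 ± 0.21 (3.96-fold, adjusted p = 0.0212). Adgrl3, a latrophilin adhesion receptor, read 8.96, 9.57 and 9.46 against 6.72, 6.25 and 9.32, and rose by 2.84 ± 0.37 (7.16-fold, adjusted p = 0.0392). Pcdh18, a protocadherin, read 10.09, 10.2 and 10.14 against 7.85, 7.91 and 9.84, and rose by 2.26 ± 0.3 (adjusted p = 0.0435). In these genes vehicle replicates 1 and 2 lay together and low, and vehicle replicate 3 lay just under the lowest trimebutine array or above it. Edil3, a matrix ligand of integrins, went further, since vehicle replicate 3 (12.27) was above trimebutine replicates 1 and 3 (11.86 and 12.15) while vehicle replicates 1 and 2 were at 10.81 and 10.54. Gsn (gelsolin, which severs actin filaments) read 10.93, 11.06 and 10.98 against 9.64, 9.41 and 10.62, and rose by 1.46 ± 0.16 without replicate 3 (adjusted p = 0.0212). The others were Ddit4l, an inhibitor of mTOR signalling (0.97 ± 0.11), Cryab, a small heat-shock protein (1.72 ± 0.22), Angpt4, a ligand of the TIE2 receptor (2.13 ± 0.28), and Klhl4, a kelch-like protein (3.04 ± 0.42). A fit that also left out the uninjured arrays gave 9 genes, of which Mmp1a, Gsn, Adgrl3, Epha7 and Ddit4l were in common with the 11.

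**Figure D3:**
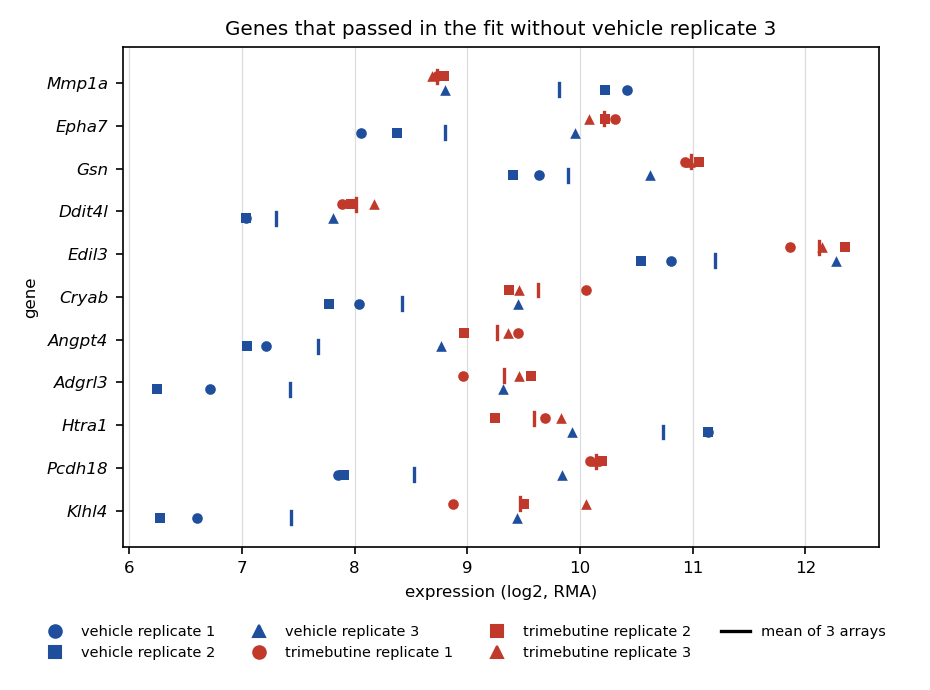
Expression (log2, RMA; horizontal axis) of the 11 genes that passed when vehicle replicate 3 was left out; each symbol is 1 array, red for trimebutine and blue for vehicle, and vertical bars are means of 3 arrays. The blue triangle of vehicle replicate 3 sits with the red symbols, as for Mmp1a at 8.8 against 8.69 to 8.79.

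Genes of the extracellular matrix lay higher with trimebutine than with vehicle, though none passed the adjusted threshold with all arrays. Of 18 collagen genes tested, 16 were above 0, as were 50% of all genes, with a median difference of 0.81, and 13 were higher at an unadjusted p under 0.05 (72.2%, against 6.38% of all genes). Col3a1, the type III collagen of young scar and dermis, read 12.81, 12.82 and 12.84 with trimebutine and 11.53, 10.64 and 12.55 with vehicle (1.25 ± 0.47, adjusted p = 0.528). Col1a1 read 13.09, 13.16 and 13.25 against 12.22, 11.95 and 13.14 (0.73 ± 0.31). Vehicle replicate 3 reached the trimebutine range or nearly so for both, and the groups overlapped for Col1a1. Col4a1, of basement membranes, and Col6a2, of microfibrils around cells, differed by 0.9 ± 0.33 and 1.09 ± 0.41. Without vehicle replicate 3 the median of the collagen list was 1.19, with 16 members above 0 and 2 below, beside 49% and 51% of all genes, and 15 of 18 members were higher at an unadjusted p under 0.05, beside 12% of all genes.

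The small leucine-rich proteoglycans, which bind collagen fibrils and set their spacing, had all 10 tested members above 0, with a median of 1.02. Aspn (asporin) read 9.88, 10.8 and 10.71 with trimebutine and 5.62, 5.65 and 9.26 with vehicle (3.62 ± 1.01, adjusted p = 0.528). Fmod (fibromodulin) read 9.42, 10.53 and 10.15 against 6.62, 6.75 and 9.8 (2.31 ± 0.79). Both genes lay below or at the array median on vehicle replicates 1 and 2 and well above it on the other 4 arrays. Podn (podocan) read 11.81, 11.43 and 11.51 against 10.18, 10.17 and 10.89 (1.17 ± 0.32), with vehicle replicate 3 between the groups. Dcn (decorin) and Bgn (biglycan) differed by 0.08 ± 0.07 and 0.08 ± 0.06, far less than the other named members. Dcn read 13.67 to 13.82, near the highest value on each of these arrays, which lay between 14.19 and 14.22. Whether so high a level limits the difference that can be seen was not tested.

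Elastic fibre and cross-linking genes were above 0 in all 18 cases tested, with a median of 0.75, and 6 were higher at an unadjusted p under 0.05, where 50% and 6.38% of all genes were. Eln (elastin) read 8.99, 10.03 and 9.51 with trimebutine and 6.79, 6.91 and 8.56 with vehicle, a difference of 2.09 ± 0.64 (4.26-fold, adjusted p = 0.528) with no overlap. Lox (lysyl oxidase, which cross-links collagen and elastin) read 13.09, 12.67 and 12.61 against 11, 10.58 and 12.51 (1.43 ± 0.49). For Lox vehicle replicate 3 lay just below the lowest trimebutine array. Ltbp2, a latent TGF-beta binding protein of microfibrils, differed by 1.37 ± 0.48. Among matricellular and adhesive glycoproteins 20 of 22 were above 0 (median 0.71), beside 50% of all genes, and 9 were higher at an unadjusted p under 0.05, beside 6.38%. Thbs4, a thrombospondin of tendon and muscle attachments, read 12.47, 11.9 and 12.82 against 8.37, 8.02 and 10.39 (3.47 ± 0.82, adjusted p = 0.528), and here vehicle replicate 3 too lay well below the trimebutine arrays. Thbs1 read 11.48, 11.27 and 11.4 against 10.22, 9.77 and 10.85 (1.1 ± 0.31), and Matn2 (matrilin 2) differed by 0.72 ± 0.2. Fn1, which read near the top of the array range, was level, at a difference of 0.05 ± 0.07. Enzymes that process collagen had a median of 0.13, with 2 of 15 higher and 2 lower at an unadjusted p under 0.05, beside 6.38% and 3.05% of all genes. Matrix proteases and their inhibitors had a median of 0.21, or 0.5 without vehicle replicate 3.

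Tendon genes, which share Thbs4, Fmod and Col1a1 with the matrix lists, had a median of 0.73, which was 0.41 without vehicle replicate 2 and 0.43 over 14 genes with no filter on dim genes. Mkx, a homeobox factor of tendon, differed by 1.29 ± 0.52 (adjusted p = 0.528), whereas Scx (scleraxis), the factor that defines tendon progenitors, differed by 0.28 ± 0.24. Contractile genes had a median of 0.3 over 16 tested members, of which 5 were higher at an unadjusted p under 0.05 (6.38% of all genes), and the median was 0.54 without vehicle replicate 3 and 0.13 without vehicle replicate 2. Acta2 (smooth muscle actin) read 10.16, 9.81 and 10.14 with trimebutine and 7.93, 7.84 and 9.95 with vehicle (1.47 ± 0.51, adjusted p = 0.528). Vehicle replicate 3 was inside the trimebutine range, and without it the difference was 2.16 ± 0.32 (adjusted p = 0.0573). Tagln (transgelin) was not tested, as it read 6 to 7.01 on the 6 arrays and exceeded the array median on 1 of 12. Myh11, the myosin of mature smooth muscle, differed by -0.11 ± 0.09.

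The TGF-beta, BMP, Wnt and growth factor lists had smaller medians than the collagens, also above 0. TGF-beta ligands, receptors and targets had 18 of 19 tested members above 0 and 8 higher at an unadjusted p under 0.05 (50% and 6.38% of all genes), with a median of 0.49, or 0.3 without vehicle replicate 1. Tgfbr2, the receptor that binds TGF-beta, read 12.06, 12.15 and 12.27 with trimebutine and 11.07, 10.84 and 12.04 with vehicle (0.84 ± 0.29). Itgb8, which with alpha-v integrin activates latent TGF-beta, read 8.17, 8.38 and 8.18 against 7.36, 7.23 and 8.17 (0.65 ± 0.24). For both genes vehicle replicate 3 lay at or just under the lowest trimebutine array. BMP genes had a median of 0.33, with 7 of 22 higher at an unadjusted p under 0.05 (6.38% of all genes). Bmper, a secreted regulator of BMPs, was at 10.36, 11.22 and 11.82 against 7.62, 7.51 and 10.56 (2.57 ± 0.92), Fstl1 differed by 0.78 ± 0.29, and the receptor Bmpr1a by 0.31 ± 0.12.

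Wnt genes had a median of 0.4 (0.62 without vehicle replicate 3), with 10 of 26 higher and 1 lower at an unadjusted p under 0.05, beside 6.38% and 3.05% of all genes. Over 34 genes with no filter on dim genes the Wnt median was 0.15. The Wnt receptors of smallest p did not depend on vehicle replicate 3. Fzd4 read 8.46, 8.56 and 8.58 with trimebutine and 7.91, 7.99 and 7.68 with vehicle (0.68 ± 0.19), with replicate 3 the lowest vehicle array. Lrp6, the co-receptor of Wnt ligands, read 11.37, 11.45 and 11.56 against 11.04, 11.17 and 11.2 (0.33 ± 0.08). Lef1, the transcription factor that acts at the end of the pathway and a marker of papillary dermis, went the other way, at 7.28, 7.92 and 7.61 against 8.61, 8.37 and 8.16 (-0.78 ± 0.21). Sfrp1, a secreted Wnt antagonist, read 11.36, 11.31 and 12.2 against 7.3, 7.01 and 11.21 (3.11 ± 1.13), a gap that was 4.46 ± 0.89 without replicate 3 (adjusted p = 0.0773). Growth factor ligands had a median of 0.35, which was 0.16 without trimebutine replicate 1, 0.19 without vehicle replicate 2, 0.53 without vehicle replicate 3, and 0.09 over 29 genes with no filter on dim genes. Angpt1, a ligand of TIE2, differed by 1.57 ± 0.5, Pdgfd by 0.88 ± 0.31 and the chemokine Cxcl12 by 1.3 ± 0.47. All genes in this and the preceding paragraph had an adjusted p of 0.528 with all arrays unless stated.

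Adhesion genes held members that opposed each other. Protocadherins were above 0 in all 15 cases tested (50% of all genes were), with a median of 0.39 and 5 higher at an unadjusted p under 0.05 (6.38% of all genes). The 3 of smallest p were Pcdhb15, Pcdh18 and Pcdhb20 (0.5 ± 0.15). Integrin subunits had 12 of 17 above 0, with a median of 0.24, or 0.49 without vehicle replicate 3 and 0.14 without vehicle replicate 2. Itga1, a collagen receptor subunit, read 9.41, 9.95 and 9.92 with trimebutine and 7.68, 7.81 and 9.4 with vehicle (1.46 ± 0.45), while Itga6, a laminin receptor subunit, read 9.38, 9.03 and 8.69 against 11.15, 10.65 and 9.77 (-1.49 ± 0.46). Vehicle replicate 3 was the vehicle array nearest to trimebutine for both. Folh1, a glutamate carboxypeptidase at the cell surface, had the largest difference of all genes tested, at 12.32, 10.79 and 11.04 against 6.29, 7.16 and 9.18 (3.84 ± 0.97, adjusted p = 0.528). Fam174b, a small membrane protein, was among the largest on the lower side, at 6.31, 6.54 and 6.39 against 8.55, 9 and 6.93 (-1.75 ± 0.53).

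**Figure D4:**
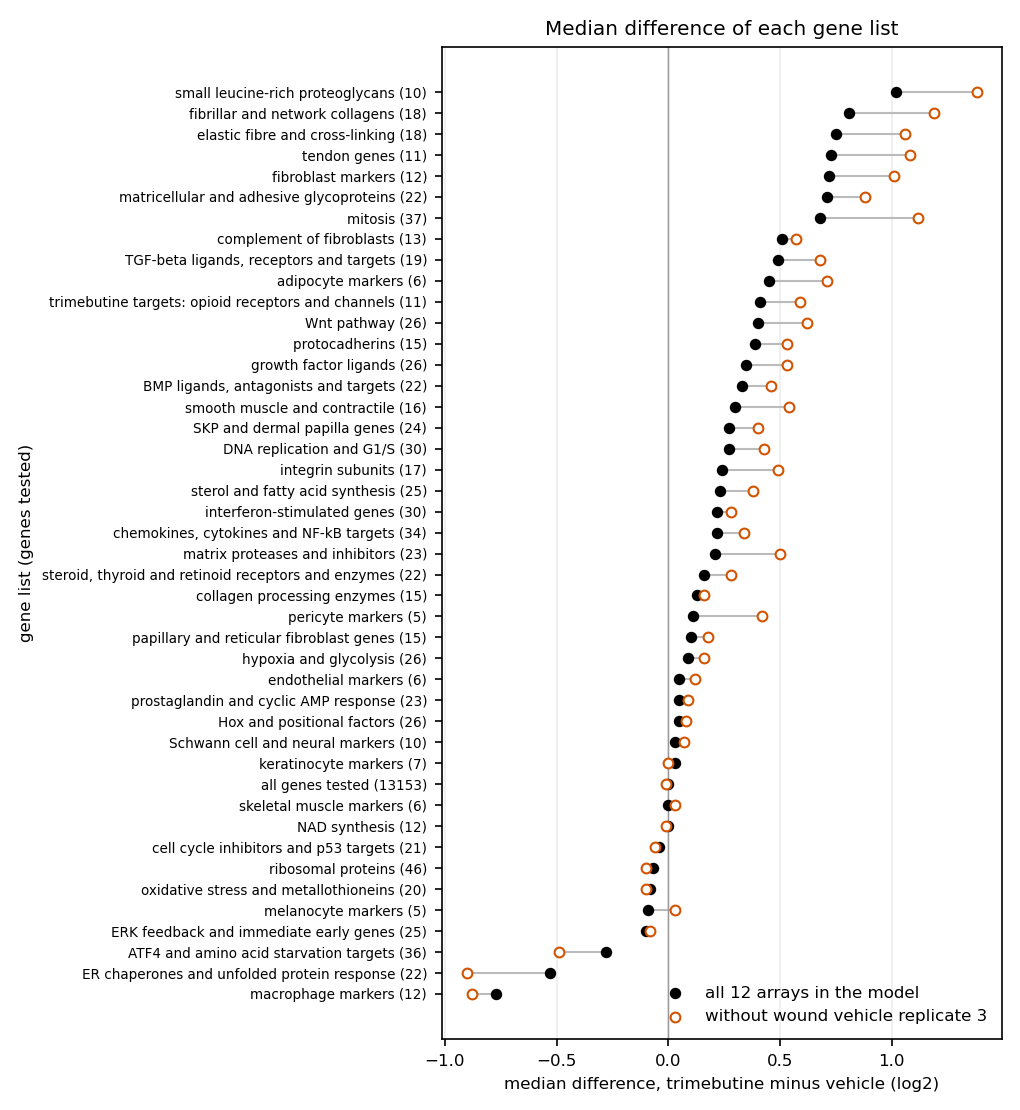
Median difference (trimebutine minus vehicle, log2; horizontal axis) of the tested members of each gene list and of all genes, with all arrays (filled) and without vehicle replicate 3 (open); numbers in brackets are genes tested. The small leucine-rich proteoglycans move from 1.02 to 1.38 and the ER chaperones from -0.53 to -0.9, while all genes stay near 0.

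Genes of cell division were higher with trimebutine on average, but the vehicle arrays spread widely. All 37 mitosis genes tested were above 0, where 50% of all genes were, with a median of 0.68. Only Smc4, a condensin subunit, was higher at an unadjusted p under 0.05 (2.7% of the list, beside 6.38% of all genes). Smc4 read 9.72, 9.71 and 9.69 with trimebutine and 9.06, 8.85 and 9.18 with vehicle (0.68 ± 0.24). Mki67, the proliferation marker, read 9.8, 8.97 and 9.19 against 7.28, 7.11 and 9.55 (1.34 ± 0.89, adjusted p = 0.598). Vehicle replicate 3 was above trimebutine replicates 2 and 3 for Mki67. Anln (anillin, of the cleavage furrow) and Ndc80, of the kinetochore, differed by 1.58 ± 0.82 and 1.33 ± 0.69. Without vehicle replicate 3 the mitosis median was 1.12 and 28 of 37 were higher at an unadjusted p under 0.05, where 12% of all genes were, and without vehicle replicate 2 it was 0.45. DNA replication genes had a median of 0.27 with 0 of 30 higher at an unadjusted p under 0.05, beside 6.38% of all genes. Without vehicle replicate 3 the median was 0.43 and 9 of 30 were higher, beside 12% of all genes.

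The ER chaperones and unfolded protein response genes were lower with trimebutine on average, in all 22 cases tested, with a median of -0.53, and 0 of 22 had an unadjusted p under 0.05, beside 3.05% of all genes that were lower. Hspa5 (BiP, the main ER chaperone) read 11.94, 11.38 and 11.27 with trimebutine and 12.74, 12.63 and 11.34 with vehicle (-0.71 ± 0.48, adjusted p = 0.602). Derl3, of the pathway that exports misfolded proteins, read 8.41, 6.6 and 6.61 against 10.02, 9.79 and 6.99 (-1.73 ± 1.04). Vehicle replicate 3 sat with trimebutine replicates 2 and 3 for both, and trimebutine replicate 1 was the highest of its group. Dnajb11, a partner of BiP, and Pdia6, a disulfide isomerase, differed by -0.66 ± 0.35 and -0.66 ± 0.36. The median was -0.35 and -0.31 without vehicle replicates 1 and 2, and -0.9 without vehicle replicate 3, when all 22 were below 0 and 13 of 22 were lower at an unadjusted p under 0.05, beside 9.37% of all genes. Targets of ATF4, the factor that answers amino acid shortage and ER stress, had a median of -0.28, with 33 of 36 below 0. That median was -0.49 without vehicle replicate 3, -0.51 without trimebutine replicate 1, and -0.18 without either vehicle replicate 1 or trimebutine replicate 3. Among these, Ddit3 (CHOP) read 11.43, 10.35 and 10.23 against 12.16, 12.1 and 10.52 (-0.93 ± 0.63), and the amino acid transporter Slc7a3 read 8.42, 7.48 and 7.29 against 10.15, 9.71 and 7.71 (-1.46 ± 0.68).

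Over all 12 arrays the replicates of a group differed widely on the list of ER chaperones and unfolded protein response genes. Its mean deviation from each gene's 12-array mean was 0.03, -0.46 and -0.45 with trimebutine and 0.59, 0.61 and -0.41 with vehicle. It was 0.52, 0.48 and -0.39 with alprostadil and -0.5, -0.5 and 0.5 in uninjured skin. Vehicle replicate 3 and alprostadil replicate 3 lay inside the trimebutine range, and the uninjured arrays lay just below it or well above it. Collagen deviations on the same arrays were 0.35, 0.19 and 0.28 with trimebutine, -0.6, -0.81 and 0.15 with vehicle, -0.36, -0.56 and 0.37 with alprostadil, and 0.41, 0.54 and 0.04 in uninjured skin. The part of this spread within groups in the difference between trimebutine and vehicle was not tested.

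**Figure D5:**
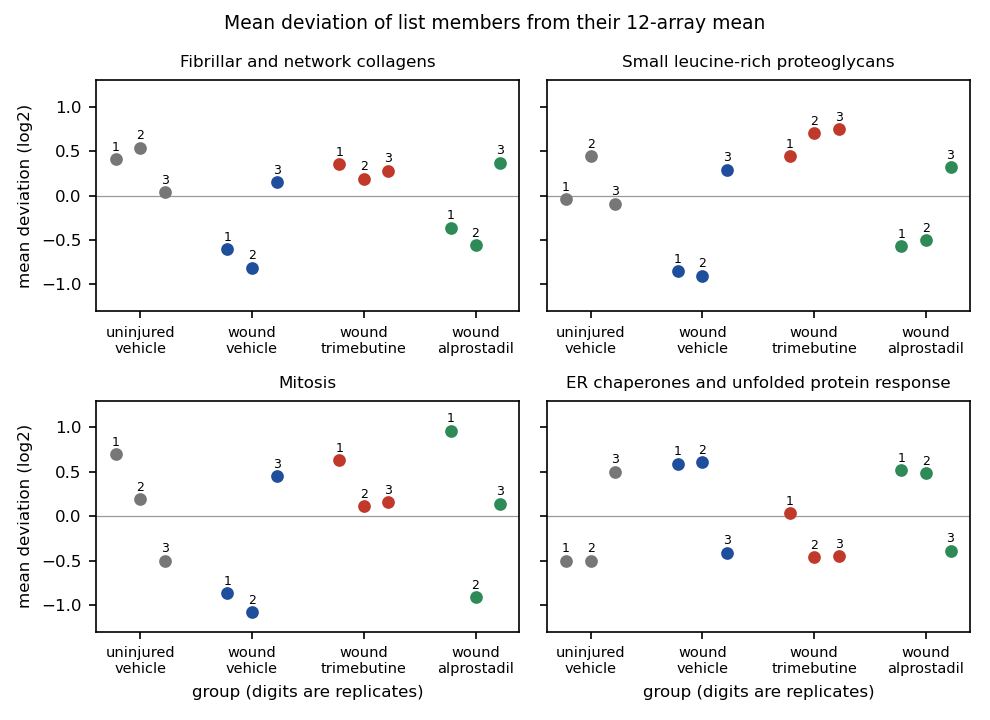
Mean deviation (log2; vertical axis) of list members from their 12-array mean for 4 lists, by group, with each point 1 array and its replicate number above it. ER chaperones are at 0.59 and 0.61 on vehicle replicates 1 and 2 and at -0.41 on vehicle replicate 3, and collagens run the opposite way, at -0.6, -0.81 and 0.15.

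Promoters of a few members are shown because the ER chaperones shared a direction on the arrays and a known stress element occurs in many of them. The ER stress element, which is CCAAT, then 9 bases of any kind, then CCACG, on either strand, was found in the 250 bases before the start of 9 of 19 list members with a promoter in RefSeq (47.4%), and of 0.13% of the 27025 genes with such a promoter. It contains the CCAAT box, which 84.2% of the list and 37.5% of all those genes held. The ATF4 composite element TGATGNAA was found in 27.6% of 29 ATF4 target promoters and 3.91% of all. The cell cycle homology region TTTGAA was found in 35.5% of 31 mitosis promoters and 18.3% of all. A match of letters does not show that a factor bound there. Only promoters with a match are printed. Among other genes named above, Dnajb11 and Ddit3 held no ER stress element, and Ddit3 no ATF4 composite element. Ndc80 and Anln held neither TTTGAA nor CCAAT. The promoters of Hspa5, Pdia6 and Derl3 follow from 5′ to 3′ on the gene's strand (GRCm38.p6), with the ER stress element in capitals, and that of Mki67 has TTTGAA and CCAAT matches on either strand in capitals. The nearest end of the ER stress element lay 47, 80 and 138 bases before the start of Hspa5, Pdia6 and Derl3, and in Derl3 it ran on the opposite strand.
Hspa5, chr2:34771840-34772089, plus strand: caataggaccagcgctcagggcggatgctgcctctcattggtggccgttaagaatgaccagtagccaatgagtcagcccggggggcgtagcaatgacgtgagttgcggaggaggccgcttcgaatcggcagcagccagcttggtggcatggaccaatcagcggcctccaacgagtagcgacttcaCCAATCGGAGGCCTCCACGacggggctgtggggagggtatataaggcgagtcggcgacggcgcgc
Pdia6, chr12:17266339-17266588, plus strand: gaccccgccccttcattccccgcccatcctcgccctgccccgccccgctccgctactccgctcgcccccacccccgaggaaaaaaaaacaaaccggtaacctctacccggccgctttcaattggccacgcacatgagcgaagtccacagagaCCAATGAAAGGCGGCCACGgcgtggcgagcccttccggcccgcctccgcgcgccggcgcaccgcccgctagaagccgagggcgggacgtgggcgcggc
Derl3, chr10:75893148-75893397, plus strand: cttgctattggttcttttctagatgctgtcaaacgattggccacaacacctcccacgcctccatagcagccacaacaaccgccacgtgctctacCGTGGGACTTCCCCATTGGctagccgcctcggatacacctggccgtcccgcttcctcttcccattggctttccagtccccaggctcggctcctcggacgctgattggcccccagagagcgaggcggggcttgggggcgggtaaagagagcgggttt
Mki67, chr7:135716380-135716629, minus strand: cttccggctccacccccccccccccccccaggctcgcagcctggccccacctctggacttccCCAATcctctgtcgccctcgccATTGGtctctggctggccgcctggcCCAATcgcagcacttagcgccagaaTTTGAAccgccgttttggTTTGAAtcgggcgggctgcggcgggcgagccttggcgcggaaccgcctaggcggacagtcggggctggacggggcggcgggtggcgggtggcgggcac

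Among the molecular targets of trimebutine the opioid receptors were dim, while several calcium channel subunits were bright enough to be tested. The opioid receptors Oprm1, Oprd1 and Oprk1 were not tested, since they lay at 5.62 to 5.91, 6.52 to 6.81 and 5.78 to 6.18 and exceeded the array median on 0, 2 and 0 of 12 arrays. Penk, the precursor of enkephalins, read 10.73, 11.03 and 10.17 with trimebutine and 10.21, 9.9 and 10.88 with vehicle (0.31 ± 0.39, adjusted p = 0.758), so the groups overlapped. The list of opioid receptors and channels also held genes of opioid peptides, such as Penk, which are not targets of the drug. Of its 25 entries 11 were tested, Penk among them and no opioid receptor. Of these, 9 were above 0 (50% of all genes were) and 1 was higher at an unadjusted p under 0.05, a share near the 6.38% of all genes. The median of the 11 was 0.41, or 0.24 without vehicle replicate 2, and it was 0.1 over the 23 matched entries with no filter on dim genes. Without vehicle replicate 3 the median was 0.59, with 10 of 11 above 0, beside 49% of all genes. In that fit 5 of 11 were higher at an unadjusted p under 0.05, beside 12% of all genes. With all arrays the target at an unadjusted p under 0.05 was Kcnma1, the calcium-activated potassium channel. It read 6.59, 6.9 and 6.93 against 6.29, 6.04 and 6.71 (0.46 ± 0.19), near the array medians. The calcium channel subunits Cacna1d and Cacna2d1 differed by 1.48 ± 0.75 and 0.41 ± 0.21. Cacna1c, the L-type channel subunit of smooth muscle, read 8.26, 8.41 and 8.38 against 7.59, 7.22 and 8.63 (0.53 ± 0.37, adjusted p = 0.605), with vehicle replicate 3 above all trimebutine arrays.

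Macrophage markers were lower on average with trimebutine, and none passed. Of 12 tested macrophage markers 11 were below 0 with trimebutine (median -0.77) and 7 had no overlap of the arrays, where 6.63% of all genes lay lower without overlap. At an unadjusted p under 0.05, 1 of 12 was lower, beside 3.05% of all genes. Lyz2 (lysozyme) read 9.54, 7.23 and 7.05 with trimebutine and 10.13, 10.96 and 9.56 with vehicle (-2.27 ± 1.25, adjusted p = 0.555). Ccl6, a macrophage chemokine, read 8.3, 5.97 and 5.48 against 9.63, 10.34 and 9.02 (-3.08 ± 1.4), the largest difference on the lower side. Chil3, of alternatively activated macrophages, read 7.76, 5.36 and 5.91 against 9.28, 8.06 and 8.82 (-2.38 ± 1.33). For these 3 genes trimebutine replicate 1 lay between its group's other arrays and the vehicle arrays, and for Lyz2 it was level with vehicle replicate 3. Cd53, a leukocyte membrane protein, differed by -0.73 ± 0.28 and Fcer1g, an immune receptor chain, by -1.25 ± 1.14. The defining receptor Csf1r was near the array median in both groups (6.61 to 6.95, -0.02 ± 0.72), Ptprc (CD45) read 4.67 to 5.67 and Adgre1 (F4/80) 5.17 to 7.12, and neither of these last was tested. The summed level of the list, as a mean deviation, was -0.15, -0.87 and -0.89 on the trimebutine arrays and 0.01, 0.5 and -0.17 on the vehicle arrays, which overlap. Its part in the other differences was not tested. Alprostadil replicate 1, at 3.57 on this measure, also enters the SE of these genes.

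Other cell type lists had medians of smaller size with all arrays, though that of fibroblast markers was close. Endothelial, keratinocyte, Schwann cell and skeletal muscle markers had medians of 0.05, 0.03, 0.03 and 0 over 6, 7, 10 and 6 tested members. The markers Pecam1, Cd3e and Adipoq stayed below the median of each of the 12 arrays. Cd3e stands for T cells, and the mast cell genes listed with it were mixed. Mcpt4, Cma1, Fcer1a and Ms4a2 also stayed below the median of each of the 12 arrays, while Cpa3, Kit and Tpsb2 were brighter. Cpa3 read 9.67, 7.56 and 6.85 with trimebutine and 7, 8.88 and 6.64 with vehicle. Kit read 8.9, 8.6 and 9.04 against 8.06, 7.47 and 9.42. Endothelial genes went both ways, and the groups overlapped for each. Flt1, a receptor for vascular endothelial growth factor, read 10.16, 9.73 and 9.52 with trimebutine and 8.3, 7.62 and 9.65 with vehicle (1.28 ± 0.53). It was the 1 of 6 tested members higher at an unadjusted p under 0.05, beside 6.38% of all genes. Cdh5 (VE-cadherin) read 7.35, 9.31 and 8.59 against 9.98, 9.98 and 7.37 (-0.7 ± 0.72). Fibroblast markers had a median of 0.72 with 11 of 12 above 0, beside 50% of all genes. Of the 12, 4 were higher at an unadjusted p under 0.05, beside 6.38% of all genes. Without vehicle replicate 3 the fibroblast median was 1.01, larger in size than the -0.88 of macrophage markers. In that fit 8 of 12 fibroblast markers were higher at an unadjusted p under 0.05, beside 12% of all genes. The 3 of smallest p were Pdgfrb (0.72 ± 0.26), a receptor for platelet-derived growth factor, Col3a1, given above, and Lum (lumican, 1.02 ± 0.43). S100a4, a calcium-binding protein, had the largest difference of the list (1.34 ± 0.79), with overlap. Pdgfra, the dermal fibroblast receptor, read 12.31, 12.53 and 12.67 against 11.51, 11.49 and 12.32 (0.73 ± 0.34, adjusted p = 0.539). Complement genes made by fibroblasts had a median of 0.51 (0.31 without trimebutine replicate 1), with C1ra at 0.67 ± 0.2, C7 at 1.38 ± 0.42 and Cd55 at 0.97 ± 0.35. The mean deviations of this list did not overlap between the groups, nor did those of several others, such as collagens and cell cycle inhibitors. Adipocyte markers had a median of 0.45 over 6 genes (0.71 without vehicle replicate 3, and 0.02 over 12 genes with no filter on dim genes), with Fabp4 at 1.34 ± 0.6, Cebpa at 0.8 ± 0.3 and Plin2 at -0.4 ± 0.13. Hox and other positional factors had a median of 0.05, with 5 of 26 higher at an unadjusted p under 0.05 (6.38% of all genes).

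The lists not yet described lay closer to 0, apart from T cell and mast cell markers, at 0.52 over only 3 tested genes. SKP and dermal papilla genes were at 0.27, sterol and fatty acid synthesis at 0.23, interferon-stimulated genes and chemokines at 0.22 each, steroid and retinoid genes at 0.16, pericyte markers at 0.11 (0.42 without vehicle replicate 3), cartilage and bone markers at 0.13 over 4 genes, papillary and reticular genes at 0.1, and hypoxia and glycolysis at 0.09. The prostaglandin list was at 0.05, NAD synthesis at 0, cell cycle inhibitors at -0.04, ribosomal proteins at -0.07, oxidative stress at -0.08, melanocyte markers at -0.09 and ERK feedback genes at -0.1. When single trimebutine or vehicle arrays were left out, the sterol median ran from 0.01 to 0.5, the chemokine median from 0.08 to 0.38, the steroid and retinoid median from 0.07 to 0.28, the papillary and reticular median from 0.05 to 0.18, and the hypoxia median from -0.09 to 0.24. The lowest sterol and chemokine values came without trimebutine replicate 1, and hypoxia was below 0 without trimebutine replicate 1 (-0.07) or vehicle replicate 2 (-0.09). Within NAD synthesis, 3 of 12 genes were higher at an unadjusted p under 0.05 (6.38% of all genes): Qprt, Naprt, which starts from nicotinic acid (0.51 ± 0.17), and Nmnat2, which makes NAD from its mononucleotide (1.08 ± 0.48). Nampt, of the salvage route, differed by 0.14 ± 0.16.

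Trimebutine was also set directly against alprostadil (prostaglandin E1) in wounded skin, to show where the drug groups differed. In limma 0 of 13153 genes passed (0% called, smallest adjusted p = 0.752), and 581 (4.42%) had an unadjusted p under 0.05, 329 of them higher (2.5%) and 252 lower (1.92%) with trimebutine. Qprt was higher by 0.96 ± 0.15 with trimebutine than with alprostadil, whose arrays were at 8.18, 8.36 and 8.71, and Mmp1a was lower by 1.35 ± 0.34, with alprostadil at 10.03, 9.97 and 10.26 (adjusted p = 0.752 for both). The arrays of these drug groups did not overlap for either gene. Mmp1a passed (adjusted p = 0.0204) in the fit from which vehicle replicate 3 was omitted, which changes only the estimate of the spread here, since the difference itself uses no vehicle array. Epsti1, an interferon-inducible gene, passed when alprostadil replicate 2 was left out (-1.32 ± 0.13, adjusted p = 0.0263), with alprostadil at 8.36, 6.91 and 8.29 and trimebutine at 7.18, 6.84 and 6.99. ER chaperones were below alprostadil in all 22 cases (median -0.46) and small leucine-rich proteoglycans above it in all 10 (median 0.76). Of all 13153 genes, 6081 were above alprostadil. At an unadjusted p under 0.05, 0 of 22 chaperones were lower (1.92% of all genes) and 4 of 10 proteoglycans higher (2.5%). On both lists alprostadil replicate 3 lay nearer to trimebutine than replicates 1 and 2 did. Its mean deviation was -0.39 for chaperones, inside the trimebutine range, and 0.32 for proteoglycans, beside -0.57 and -0.5 on replicates 1 and 2.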

How the data were processed

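RNA of 12 sphere cultures was measured on Affymetrix Mouse Gene 2.0 ST arrays, from 400 ng of total RNA per the labels' protocols. The deposited values are log2 expression levels. Per the submitters' processing notes the authors used RMA and oligo, an R package, of unstated version and settings. Of 41345 probe sets, 23521 carry 1 gene symbol, 1814 several and 16010 none in the platform annotation, and only the first were used. The brightest probe set per symbol gave 22180 genes, and 13153 exceeded the array median on 3 or more of the 12 arrays and were tested. The number of arrays limits the precision.

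All 4 groups entered 1 limma model (limma 3.58.1, R 4.3.3) without covariates, two-sided, with Benjamini-Hochberg adjustment over 13153 genes and a threshold of 0.05. Of 1069 entries in 45 gene lists 990 matched a gene, and lists are described by counts and medians with no set test. Named were the 8 genes of smallest p per direction without overlap, up to 15 genes passing without vehicle replicate 3, the 3 members of smallest p of each list with at least 5 tested members and a median of at least 0.3 in size, 17 fixed genes, and the 4 largest non-overlapping differences per direction. Genes outside this rule were named after their values were seen. The comparison, lists and rules were chosen with earlier results of these data known. Deviations of same-numbered trimebutine and vehicle arrays correlated at 0.29, -0.17 and 0.23, and those of differently numbered arrays at -0.3 to 0.18. With 3 arrays a group these values cannot settle whether the replicate numbers pair the groups, and the model used no pairing. The scripts were tested on simulated data. Python 3.11.15 with matplotlib 3.10.9 made the figures.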

Additional observations from a re-analysis of the deposited data

How the results depend on the processing

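The count of 0 genes between trimebutine and vehicle held under the replicate block (smallest adjusted p = 0.482), both other filters on dim genes, the mean of probe sets, cyclic loess, median centring, fits on only the 6 or 9 wound arrays, a mean-variance trend and an adjusted p of 0.10. It did not hold under array weights, where 4034 genes passed (2167 higher, 1867 lower). Vehicle replicate 3 had a weight of 0.323 against 2.7 and 0.985 for replicates 1 and 2. Weights were unequal in other groups too. Trimebutine replicate 2 had 4.69 against 0.452 and 1.41 for replicates 1 and 3, and uninjured replicate 2 had 5.99 against 0.683 and 0.491. With these weights 2932 and 2830 genes were higher and lower at an unadjusted p under 0.05. Leaving out single arrays gave 0 to 11 genes, with 273 to 1574 higher and 168 to 1232 lower at an unadjusted p under 0.05, and 0 to 1 gene against alprostadil. Without a filter 807 genes were lower, and with median centring 168. In a fit on the wound arrays without vehicle replicate 3, chosen after seeing the data, 9 genes passed, 1573 were higher and 1270 lower, the collagen median was 1.19 and 1 gene passed against alprostadil.

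List medians under single omissions ran from 0.54 to 1.19 for collagens and from 0.31 to 0.65 for complement, and the adipocyte median was 0.02 without a filter. The difference of Nes, which was 0 ± 0.12, lay between -0.08 and 0.09 when single arrays were left out and turned sign by small amounts: 0.02 under cyclic loess, 0.05 under median centring, 0.04 under array weights, 0.06 on wound arrays without vehicle replicate 3, and up to 0.09 without trimebutine replicate 1 (0.02 and 0.06 without vehicle replicates 1 and 3). The cause of these changes was not tested. The block changed no call. With 3 arrays a group, and genes near the array median such as Nes and Kcnma1, small differences could not be resolved.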
